A study of Mus musculus with 14 samples.

Results

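The 9 genes described here sense RNA inside cells or are switched on by interferon: Ifih1, Ddx58, Zbp1, Mavs, Irf7, Isg15, Ifit1, Ifit3 and Bst2. They were chosen by symbol from the count tables of mouse male germ cells, where each had 1 entry, out of 38444 gene entries in either table. Polyadenylated RNA was sequenced from 14 libraries in 4 groups, and the comparison asked whether the release of retroelements in germ cells that lack the DNA methyltransferase DNMT3C goes with a higher level of these genes. Spermatogonia (Spg, 3 KO and 3 WT libraries) came from testes at postnatal day 14 and were sorted as living cells positive for EpCAM and negative for β2-microglobulin, a protein that most somatic cells carry and germ cells carry little of. Spermatocytes (Spc, 4 KO and 4 WT libraries) came from mice older than 20 days and were sorted by exclusion of a dead-cell dye and by DNA content, with no marker of cell type. KO stands for libraries labelled Dnmt3CKO/KO, from mice with both Dnmt3C alleles knocked out and no Cre, and WT for their wild-type littermates, all on a C57Bl6/J background. Because KO germ cells arrest at the pachytene stage of meiosis, the WT spermatocyte sort also holds later stages, so that genotype and the mix of stages cannot be told apart in spermatocytes.

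Cells recognise foreign or unusual RNA with receptors such as RIG-I and MDA5, which bind double-stranded RNA and signal through the adaptor MAVS on mitochondria. The signal activates interferon regulatory factors, interferon is released, and the JAK-STAT pathway then turns on interferon-stimulated genes in the same and in neighbouring cells. Transcripts of retroelements can form double-stranded RNA, and loss of their silencing is known to trigger this response in several somatic cell types. Macrophages, fibroblasts and other somatic cells of the testis hold much of this machinery, so their RNA bears on any reading of these genes in sorted germ cells.

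Total counts ran from 40555726 to 53323651 per library. Among the spermatocyte libraries of each genotype, replicates 1 and 4 were far more alike (chi-square per degree of freedom 11.6 in KO and 14.9 in WT) than the other pairs (129 to 286), though not within sampling noise. They were kept as separate libraries, though the authors name 3 biological replicates of each genotype for spermatocyte RNA sequencing. If replicates 1 and 4 share their source, the p-values for spermatocytes are too small. Levels are given as CPM, counts per 1000000 after TMM scaling over the 14 libraries, and a gene was called at an adjusted p under 0.01 (edgeR quasi-likelihood test, Benjamini-Hochberg over all genes and element subfamilies tested). RNA of Dnmt3c itself did not serve to check the labels, since its counts ranged from 58 to 116 in the KO and from 53 to 89 in the WT libraries of spermatogonia, and from 52 to 57 in the KO and from 11 to 28 in the WT libraries of spermatocytes. In spermatogonia L1 retroelements made up 0.756% to 1.34% of KO counts against 0.298% to 0.496% of WT counts. In spermatocytes the KO share was 2.15% to 4.84% and the WT share 0.348% to 0.581%. Every KO library thus lay above every WT library of its stage, with two-sided exact permutation p-values of 0.10 for 3 against 3 libraries and 0.0286 for 4 against 4, the smallest that each size allows (0.10 and 0.0571 after adjustment over the 4 tests of L1 and ERVK shares). With spermatocyte replicates 1 and 4 averaged the exact permutation p was 0.1.

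The libraries of KO spermatocytes differed from WT in RNA of several somatic cell types. Of 14 macrophage markers, 13 were higher in every KO than in every WT spermatocyte library, as were 33% of all genes tested, and 12 were called higher. The exception was Aif1, called lower in KO (0.667 to 1.74 CPM against 4.04 to 53.9 CPM in WT, log2 change -4.59, adjusted p 0.000368 in edgeR). The macrophage list summed to 173, 272, 74.3 and 165 CPM in KO replicates 1 to 4 against 17.5 to 81.2 CPM in WT. Markers of peritubular and stromal cells summed to 6171, 4034, 542 and 5315 CPM in KO replicates 1 to 4 and to 52.6 to 68.9 CPM in WT. Leydig markers summed to 57.3 to 356 CPM in KO and 14.1 to 30.4 CPM in WT, and endothelial markers to 31.2 to 153 CPM in KO and 5.90 to 10.0 CPM in WT. KO replicate 3 had the least of the macrophage, stromal and endothelial markers, and its macrophage sum lay under that of WT replicate 3, 53.9 CPM of which were Aif1. Over the 13 other macrophage markers, a sum chosen after the data were seen, KO replicates 1 to 4 held 172, 270.2, 73.6 and 164 CPM and WT 11.7 to 27.2 CPM, without overlap. Sertoli sums overlapped (318 to 1154 CPM in KO and 141 to 539 CPM in WT), and lymphocyte sums were lower in every KO library (4.67 to 6.90 against 10.3 to 13.2 CPM), with 3 markers called lower and 0 higher. In all 6 spermatogonia libraries the macrophage sum was 5.84 to 12.1 CPM and the stromal sum 35.4 to 51.6 CPM, with KO and WT overlapping. Endothelial sums there were 18.5 to 23.2 CPM in KO and 15.7 to 18.0 CPM in WT, without overlap, and 0 of 7 tested markers were called. Sertoli markers, however, summed to 1530, 623 and 453 CPM in KO and 1186, 636 and 332 CPM in WT spermatogonia replicates 1 to 3, a range like that of KO spermatocytes. The genotypes also differed in stage markers there, pachytene markers summing to 93.7 to 130 CPM in KO and to 309, 1042 and 152 CPM in WT spermatogonia. The part of these cells in each result below was not tested beyond the values given beside it. In bulk samples fewer cells of a type and less RNA per cell cannot be told apart.

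In spermatogonia none of the 9 genes was called. These cells had been sorted as negative for β2-microglobulin, the product of B2m, a gene of the pathway lists below. The result therefore covers only cells with little of that protein. Of the 9, only Ifih1, Ddx58, Irf7, Mavs and Bst2 passed the filter on low counts and entered the test, and 0 of these 5 were called, where 0.0436% of all genes tested were called in either direction (0.523% with replicate numbers as a block). At an unadjusted p under 0.05, 1 of the 5 passed (Bst2), as did 7.3% of all genes tested, and DESeq2 called 0 of the 5 and 2.49% of all genes. The median log2 fold change of the 5 was 0.05, beside 0.02 over all genes tested. In spermatocytes 7 of the 9 genes were called, all of them higher in KO (DESeq2 also called 7). Of these, Irf7, Isg15, Ifit1 and Ifit3 had at most 8 counts in any WT spermatocyte library and passed the filter through their KO counts. For them a call could hardly go any way but higher in KO. Of all genes tested there, 28% were called higher, 30.7% lower and 58.8% in either direction, so that a call was frequent for any gene. The median log2 fold change of the 9 was 3.38 and that of all genes tested 0.11. Scaling by library totals moved the median of all genes to 0.79 and the share called higher to 36.8%, and 7 of the 9 were called higher under that scaling too, and 7 with replicates 1 and 4 of each genotype summed to 1 library. The same 7 genes lay higher in every KO than in every WT spermatocyte library, which held for 33% of all genes tested.

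**Figure D1:**
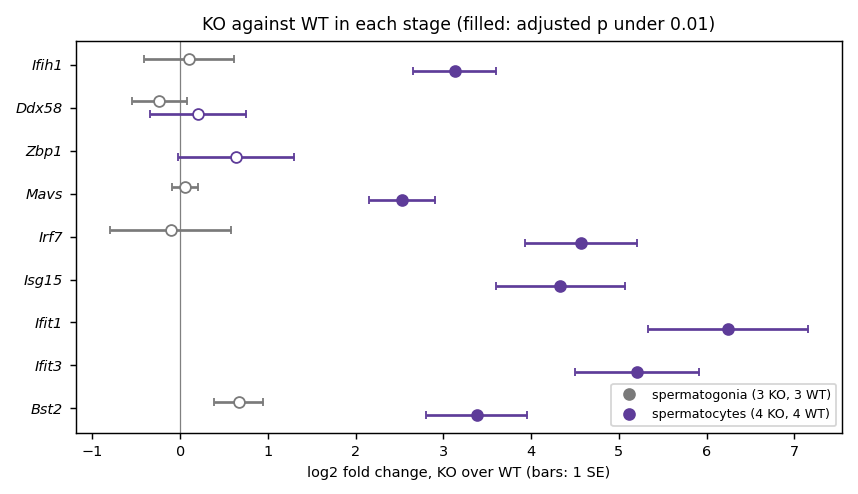
Log2 fold change of KO over WT (horizontal axis) for each of the 9 genes in spermatogonia (grey) and spermatocytes (purple), with bars of 1 SE and filled points at an adjusted p under 0.01. The spermatogonia points lie between -0.24 and 0.67 and are open, 7 of 9 spermatocyte points are filled and lie between 2.53 and 6.24, and Isg15, Ifit1, Ifit3 and Zbp1 have no spermatogonia point because their counts were under the filter.

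Of the 3 cytosolic sensors, 1 was called in spermatocytes. Ifih1 (ENSMUSG00000026896.14, chromosome 2, 62595798 to 62646255, minus strand, GRCm38) encodes MDA5, which binds long double-stranded RNA. Its level in spermatogonia was 7.16, 3.33 and 2.68 CPM for the KO replicates 1 to 3 against 6.64, 2.83 and 2.42 CPM in WT. The libraries of the 2 genotypes overlapped, replicate 1 of each, the library with the highest Sertoli sum of its genotype, was the highest, and the fitted log2 change was 0.10 ± 0.51 (SE, adjusted p 1 in edgeR). In spermatocytes Ifih1 stood at 10.96, 3.91, 4.96 and 11.4 CPM in KO replicates 1 to 4 and at 0.834, 0.784, 1.27 and 0.731 CPM in WT. Every KO library lay above every WT library, and the fitted log2 change was 3.13 ± 0.47 (SE, adjusted p 0.000288 in edgeR).

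Ddx58 (ENSMUSG00000040296.15, chromosome 4, 40203773 to 40239828, minus strand) encodes RIG-I, which recognises short double-stranded RNA with a 5′ triphosphate. In spermatogonia it stood at 2.36, 1.64 and 1.72 CPM in KO and 2.59, 2.19 and 1.78 CPM in WT, with overlapping libraries and a log2 fold change of -0.24 ± 0.32 (SE, adjusted p 1 in edgeR). In spermatocytes the KO libraries spread from 2.38 CPM in replicate 3 through 5.07 CPM in replicate 2 to 14.2 and 15.3 CPM in replicates 1 and 4, while WT held 5.70 to 9.37 CPM. The KO libraries thus lay on both sides of WT. The fitted log2 change was 0.21 ± 0.55 (SE, adjusted p 0.746 in edgeR) and its sign turned to -0.06 without KO replicate 1 and to -0.16 without KO replicate 4.

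Zbp1 (ENSMUSG00000027514.14, chromosome 2, 173206612 to 173218923, minus strand) encodes a sensor of left-handed double-stranded nucleic acid that can start necroptosis. It was scarce everywhere. Its counts in spermatogonia were 10, 2 and 8 in KO and 41, 3 and 0 in WT, under the filter on low counts. In spermatocytes there were 30, 39, 8 and 17 counts in KO and 20, 4, 5 and 9 in WT, so that the groups overlapped, and the fitted log2 change was 0.64 ± 0.66 (SE, adjusted p 0.402 in edgeR).

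Mavs (ENSMUSG00000037523.13, chromosome 2, 131234063 to 131248025, plus strand), the adaptor that both RIG-I and MDA5 need, was among the best measured of the 9. In spermatogonia it stood at 35.7, 33.5 and 32.2 CPM in KO and 34.9, 28.8 and 32.0 CPM in WT, with overlapping libraries and a log2 change of 0.05 ± 0.15 (SE, adjusted p 1 in edgeR), whose interval of 2 SE ran from -0.25 to 0.35. The 4 KO spermatocyte libraries held 40.0, 27.6, 24.8 and 40.3 CPM and the 4 WT libraries 4.04, 6.21, 9.77 and 3.55 CPM. No KO library fell as low as the highest WT library, and the fitted log2 change was 2.53 ± 0.38 (SE, adjusted p 0.000257 in edgeR). Mavs was not called different between KO spermatocytes and KO spermatogonia, with a log2 difference of -0.03 (edgeR adjusted p 0.971) and an interval of 2 SE from -0.66 to 0.61. In WT, by contrast, Mavs was lower in spermatocytes than in spermatogonia by a log2 difference of -2.43 (SE 0.33, edgeR adjusted p 3.73e-05).

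Irf7 (ENSMUSG00000025498.15, chromosome 7, 141262706 to 141266481, minus strand) encodes the transcription factor that amplifies interferon production and is itself raised by interferon. Spermatogonia had 0.462, 0.563 and 0.284 CPM in KO and 0.674, 0.597 and 0.0910 CPM in WT, with overlapping libraries (log2 change -0.11 ± 0.69 SE, adjusted p 1 in edgeR). In spermatocytes its KO replicates 1 to 4 held 6.33, 3.24, 1.09 and 6.23 CPM, while WT held 0.124, 0.151, 0.192 and 0.244 CPM. Even the lowest KO library, replicate 3, lay above all WT and all spermatogonia libraries. The fitted log2 change was 4.57 ± 0.64 (SE, adjusted p 0.000183 in edgeR).

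**Figure D2:**
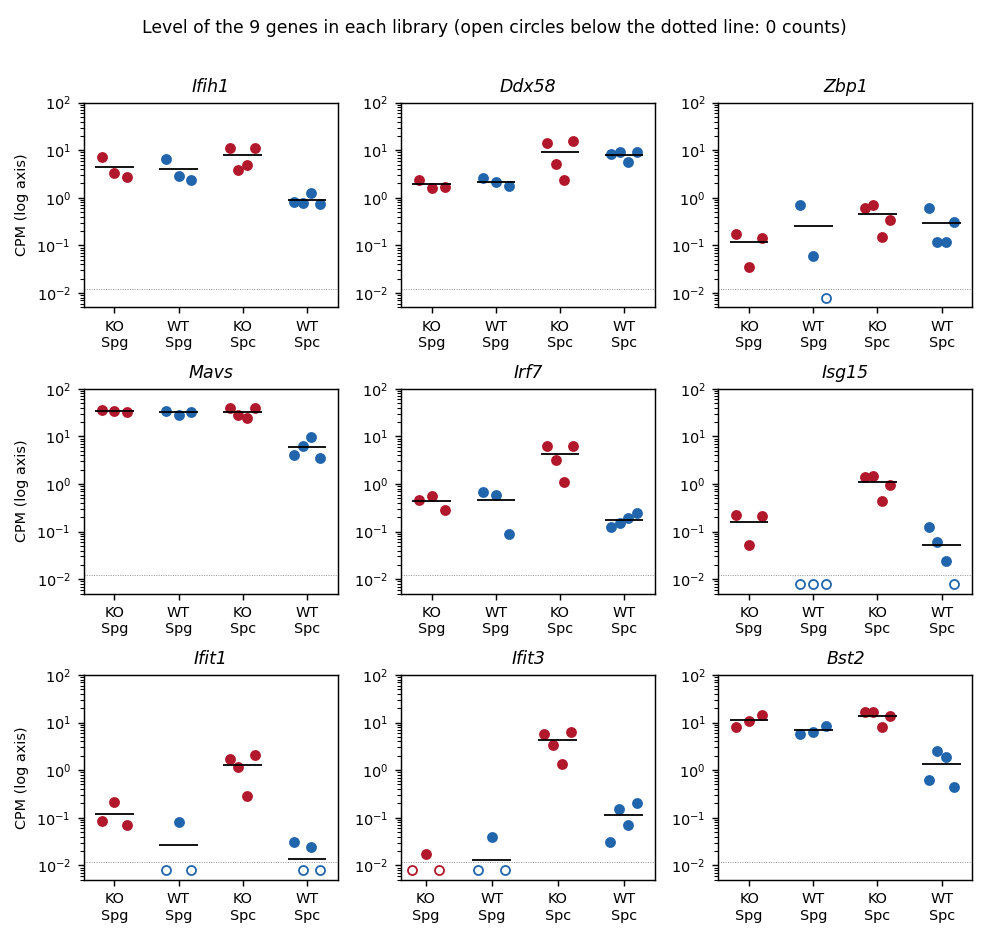
Level of each of the 9 genes in every library (CPM on a log axis, 1 point a library, red KO and blue WT, line at the group mean where it exceeds the dotted line), with open circles below the dotted line for libraries with 0 counts. Ifih1, Mavs and Bst2 lie low in WT spermatocytes and lie near spermatogonia in KO spermatocytes, while Irf7, Isg15, Ifit1 and Ifit3 lie higher in all 4 KO spermatocyte libraries than in all 6 spermatogonia libraries, a pattern of 9.27% of all genes tested.

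The effector genes are the classical targets of interferon, and their promoters carry the interferon-stimulated response element, to which interferon-activated STAT complexes and interferon regulatory factors bind. The bases before the start of 4 effector genes and of 2 genes of the sensing pathway are shown to let these letters be seen (RefSeq, GRCm38.p6, 160 bases before the annotated start, 5′ to 3′ on the gene's strand). Capitals mark matches to the core of the element, GAAA followed by any 2 bases and again GAAA, or the same read on the other strand, TTTC followed by any 2 bases and TTTC.
Isg15, chr4:156200819-156200978, minus strand: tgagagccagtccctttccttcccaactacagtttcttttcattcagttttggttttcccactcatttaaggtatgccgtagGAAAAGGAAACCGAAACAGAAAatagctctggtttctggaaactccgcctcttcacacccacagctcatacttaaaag
Ifit1, chr19:34640729-34640888, plus strand: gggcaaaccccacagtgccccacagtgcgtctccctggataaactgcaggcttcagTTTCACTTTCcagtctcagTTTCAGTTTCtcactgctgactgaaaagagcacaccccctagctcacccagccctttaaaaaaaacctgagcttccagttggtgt
Ifit3, chr19:34583369-34583528, plus strand: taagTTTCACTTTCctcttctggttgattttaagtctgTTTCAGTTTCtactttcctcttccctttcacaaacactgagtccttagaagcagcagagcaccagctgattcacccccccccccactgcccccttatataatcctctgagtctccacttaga
Bst2, chr8:71537473-71537632, minus strand: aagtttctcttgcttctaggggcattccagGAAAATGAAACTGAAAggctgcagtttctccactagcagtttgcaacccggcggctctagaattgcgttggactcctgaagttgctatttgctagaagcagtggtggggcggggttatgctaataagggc
Irf7, chr7:141266425-141266584, minus strand: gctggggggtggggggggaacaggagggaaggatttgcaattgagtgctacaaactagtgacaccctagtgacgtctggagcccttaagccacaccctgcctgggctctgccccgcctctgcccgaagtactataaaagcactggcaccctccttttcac
Mavs, chr2:131233903-131234062, plus strand: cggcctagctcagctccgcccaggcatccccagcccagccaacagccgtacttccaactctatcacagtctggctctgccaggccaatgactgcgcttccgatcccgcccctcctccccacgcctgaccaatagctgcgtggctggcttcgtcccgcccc

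Over the window of 250 bases before to 50 after the start, 8 of the 9 genes had a promoter entry, and 6 of these 8 held the element on either strand (3 overlapping matches in Isg15, 2 each in Ifit1, Ifit3 and Bst2, and 1 each in Ifih1 and Ddx58 after the start). The same letters stood in 3.44% of the 32851 promoters of that length. Irf7 and Mavs held no match, and Zbp1 had no entry. The letters TTCNNNGAA, the core of the gamma-activated site that STAT dimers bind, read the same on both strands and stood in 1 of the 8 (Bst2) and in 8.3% of all promoters. A match is a description of letters and not a bound site. Of the 7 genes called in spermatocytes, 5 held the element and Irf7 and Mavs did not, while Ddx58, which held it, was not called.

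Isg15 (ENSMUSG00000035692.7, chromosome 4, 156199424 to 156200818, minus strand) encodes a ubiquitin-like protein that is joined to other proteins after interferon. The KO spermatogonia replicates 1 to 3 gave 13, 3 and 12 counts, and each of the 3 WT libraries gave 0. Every KO library therefore lay above every WT library, a pattern that 5.95% of all genes tested showed in that direction. Taken over the group, the level in KO was at least 8.87-fold higher than a WT level of 3 counts would give, with a p of 0.10 in a two-sided exact permutation test, which cannot go lower at this size. The gene was under the filter, and with no filter beyond 1 count its edgeR adjusted p was 0.165 (0.165 to 0.426 over the 5 alternatives that tested it). In spermatocytes Isg15 had 71, 84, 23 and 47 counts in KO and 4, 2, 1 and 0 in WT. The fitted log2 change was 4.33 ± 0.74 (SE, adjusted p 0.000552 in edgeR), and the groups did not overlap.

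Ifit1 (ENSMUSG00000034459.8, chromosome 19, 34640871 to 34650009, plus strand) and Ifit3 (ENSMUSG00000074896.3, chromosome 19, 34583531 to 34588731, plus strand) lie in the same gene cluster and encode partner proteins, of which IFIT1 binds RNA whose cap lacks the marks of the cell's own messages. The cluster holds close copies, such as Ifit3b beside Ifit3, between which reads can be shared. In spermatogonia Ifit1 had 5, 12 and 4 counts in KO and 0, 4 and 0 in WT, which overlap. Ifit3 had 0, 1 and 0 counts in KO and 0, 2 and 0 in WT, both at the floor of detection. In spermatocytes KO replicates 1 to 4 gave 84, 65, 15 and 101 counts of Ifit1, while WT gave 1, 0, 1 and 0, so that the ratio of the summed levels was 87.2 with a 95% exact counting interval of 23.9 to 723 (edgeR adjusted p 0.000232). Ifit3 stood at 5.74, 3.40, 1.37 and 6.33 CPM in KO spermatocytes and at 0.0309, 0.151, 0.0719 and 0.209 CPM in WT, without overlap. Its log2 change was 5.21 ± 0.71 (SE, adjusted p 0.000152 in edgeR).

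Bst2 (ENSMUSG00000046718.8, chromosome 8, 71534255 to 71537456, minus strand) encodes tetherin, a membrane protein that holds budding retroviruses at the cell surface. It showed the only difference in spermatogonia with an unadjusted p under 0.05 among the 5 genes tested. The KO libraries held 8.25, 10.97 and 14.2 CPM and the WT libraries 5.72, 6.43 and 8.52 CPM, so that the lowest KO library lay under the highest WT library, while KO was higher within each of the 3 same-numbered pairs. Ifih1, Mavs, Isg15 and Ifit1 were likewise higher in KO in all 3 pairs, as were 21% of all genes tested, and Ddx58 was lower in all 3, as were 14.5%. The log2 change was 0.67 ± 0.28 (SE, unadjusted p 0.0465 and adjusted p 0.667 in edgeR), and its adjusted p stayed between 0.233, with the replicate block, and 1 in the 12 alternatives. In spermatocytes Bst2 stood at 17.0, 16.9, 8.03 and 13.5 CPM in KO and 0.617, 2.50, 1.89 and 0.452 CPM in WT. These groups did not overlap, and the fitted log2 change was 3.38 ± 0.58 (SE, adjusted p 0.000564 in edgeR).

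Per length of exons, Bst2 and Mavs held the highest mean levels of the 9 in every group, though in WT spermatocytes Mavs, Bst2 and Ddx58 (1.76 ± 0.847, 1.51 ± 1.1 and 1.15 ± 0.235 CPM per kb, SD, n = 4) lay within their spread. In KO spermatocytes Bst2 reached 15.3 ± 4.67 and Mavs 9.92 ± 2.43 CPM per kb (SD, n = 4), followed by Ifit3 at 2.41 ± 1.30 and Isg15 at 1.43 ± 0.654 CPM per kb. Bst2 and Mavs differed there by little more than their spread. Ddx58 at 1.31 ± 0.915, Irf7 at 1.12 ± 0.671 and Ifih1 at 0.955 ± 0.479 CPM per kb differed by less than their spread from each other and from Isg15. Ifit1 at 0.490 ± 0.290 and Zbp1 at 0.128 ± 0.0705 CPM per kb were the lowest. In WT spermatogonia Mavs held 9.53 ± 0.904 and Bst2 7.63 ± 1.61 CPM per kb (SD, n = 3), and none of the others exceeded 0.485 CPM per kb, the level of Ifih1.

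Set against all 4 groups, the 9 genes fell into unlike patterns. Ifih1, Mavs and Bst2 were lower in each WT spermatocyte library than in each of the 6 spermatogonia libraries, as were 28.6% of all genes tested. WT spermatocytes were called lower than WT spermatogonia for all 3, with log2 differences of -2.12 for Ifih1, -2.43 for Mavs and -2.33 for Bst2 (edgeR adjusted p 0.00232, 3.73e-05 and 0.00115), where 23.3% of all genes tested were called lower. KO spermatocytes were not called different from KO spermatogonia for any of these 3, and the intervals of 2 SE of the log2 difference ran from -0.18 to 1.84 for Ifih1 and from -0.67 to 1.30 for Bst2. Ddx58 was instead higher in WT spermatocytes than in WT spermatogonia, with a log2 difference of 1.89 (SE 0.53, edgeR adjusted p 0.00668), where 29.2% of genes were called higher. This call for Ddx58 held in 8 of 21 alternatives and was lost with library totals (1.04, adjusted p 0.0747), with replicates 1 and 4 summed (adjusted p 0.0112) and without any 1 of the 6 spermatogonia libraries (adjusted p up to 0.043). Without WT spermatogonia replicate 1, 2 of the 4 calls between the WT stages were left, those of Mavs and Bst2.

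Irf7, Isg15, Ifit1 and Ifit3 lay higher in every KO spermatocyte library than in any spermatogonia library, as did 9.27% of all genes tested. Between KO spermatocytes and KO spermatogonia only Ifit3 was called, with 857 against 1 summed counts, a ratio of 711 with a 95% exact counting interval of 127 to 2.81e+04 (edgeR adjusted p 0.000495), where 3.01% of all genes tested were called higher. Irf7 missed the threshold with a log2 difference of 3.27 (SE 0.69, edgeR adjusted p 0.0106), and Ddx58 with 2.27 (SE 0.54, edgeR adjusted p 0.020). Without KO spermatocyte replicate 3 both were called (adjusted p 0.00253 and 0.00207), and Irf7 was also called without WT spermatogonia replicate 3 (adjusted p 0.0049). Spermatogonial markers summed to 477 to 1201 CPM in KO and 90.1 to 314 CPM in WT spermatocytes, and pachytene markers to 138 to 301 CPM in KO and 6526 to 12673 CPM in WT. Spermatid markers summed to 2.90 to 11.3 CPM in KO and 69.1 to 1512 CPM in WT spermatocytes. The part of these stage differences in the 7 calls was not tested.

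Whether the KO effect itself differed between the stages was tested over all 14 libraries as an interaction. It was called for 4 of the 9 genes, all with a larger effect in spermatocytes, where 11.1% of all genes tested were called in that direction. The log2 difference of the KO effect was 4.61 for Irf7 (SE 0.96), 2.95 for Ifih1 (SE 0.72), 2.64 for Bst2 (SE 0.71) and 2.41 for Mavs (SE 0.46), with edgeR adjusted p-values of 0.00234, 0.00565, 0.00946 and 0.00141. For Ifit3 and Ifit1 it was 6.03 and 4.07 with adjusted p-values of 0.0347 and 0.0727 in edgeR, fitted on 1 to 21 summed counts per spermatogonia group, and DESeq2 called Ifit3 with an adjusted p of 0.00262 (0.00262 to 0.916 over the alternatives, highest without WT spermatogonia replicate 2). Ddx58 and Zbp1 stood at 0.39 and 1.77 with adjusted p-values of 0.686 and 0.342. Isg15 alone had the opposite sign, at -1.68 (adjusted p 0.286), and was negative in all 20 alternatives (-2.12 to -0.93), a fit that depends on the prior count because its WT spermatogonia libraries were at 0. The calls for Irf7 and Mavs held in all 21 alternatives, that for Ifih1 in 12 and that for Bst2 in 8. Both of the latter were lost when spermatocyte replicates 1 and 4, which were much alike, were summed (adjusted p 0.023 and 0.0216), and 2 calls were left without KO spermatogonia replicate 2 or 3, WT spermatogonia replicate 1, or replicate 1 or 4 of KO or of WT spermatocytes. Bst2 was also not called with the replicate block (2.88, adjusted p 0.0126).

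Within the 4 KO spermatocyte libraries the order of 8 of the 9 genes differed from that of the L1 and ERVK shares. Replicate 3 had the lowest level of these 8, as it had of 25.2% of all genes tested. Ifih1 was highest in replicate 4 and lowest in replicate 2, as was the L1 share. In replicate 3 the L1 share of counts was 4.33%, beside 4.32% in replicate 1 and 4.84% in replicate 4, and the ERVK share, 1.32%, was the highest of the 4. Replicate 2, with the lowest L1 share (2.15%) and the lowest ERVK share (0.814%), had the highest level of Isg15 and Zbp1 and a Bst2 level next to the highest. Replicate 3 was also the library with the lowest sums of macrophage, stromal and endothelial markers, replicates 1 and 4 had the highest stromal and Leydig sums, and replicate 2 the highest macrophage sum. Among the stage lists, pachytene sums ran in the order of Ifih1 and early meiotic sums in that of the L1 share, both lowest in replicate 2. Spermatogonial sums were highest in replicate 2 and spermatid sums in replicate 3. Ifih1, Ddx58, Irf7, Mavs, Ifit1 and Ifit3 were highest in replicates 1 and 4. These orders rest on 4 libraries and were not tested.

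Taken alone against the 4 WT libraries, a comparison chosen after the data were seen, KO replicate 3 kept the direction of all 7 genes, with log2 fold changes of 2.12 for Mavs, 2.49 for Ifih1, 2.60 for Bst2, 2.64 for Irf7, 3.04 for Isg15, 3.60 for Ifit3 and 4.07 for Ifit1. None of the 9 was called there (adjusted p 0.0227 to 0.0963 for the 7), where 0.585% of all genes tested were called higher, and the lone KO library is assumed to vary like the WT libraries. At an unadjusted p under 0.05 the 7 passed, as did 21.3% of all genes tested in that direction, and their direction was known beforehand from the values of that library. Ddx58 and Zbp1 turned to -1.72 and -0.88 (edgeR adjusted p 0.0797 and 0.605). In replicate 3, 13 of the 14 macrophage markers lay above all WT libraries, as did 43.8% of all genes tested, Aif1 being the exception. These 13 summed to 73.6 CPM against at most 27.2 CPM in WT. Csf1r stood at 8.05 CPM against 1.04 to 1.77 CPM, C1qa at 5.13 against 0.313 to 0.904 CPM and Adgre1 at 2.08 against 0.271 to 0.910 CPM. In spermatogonia Csf1r, C1qa and Adgre1 were at 0 to 0.935 CPM in each library.

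**Figure D3:**
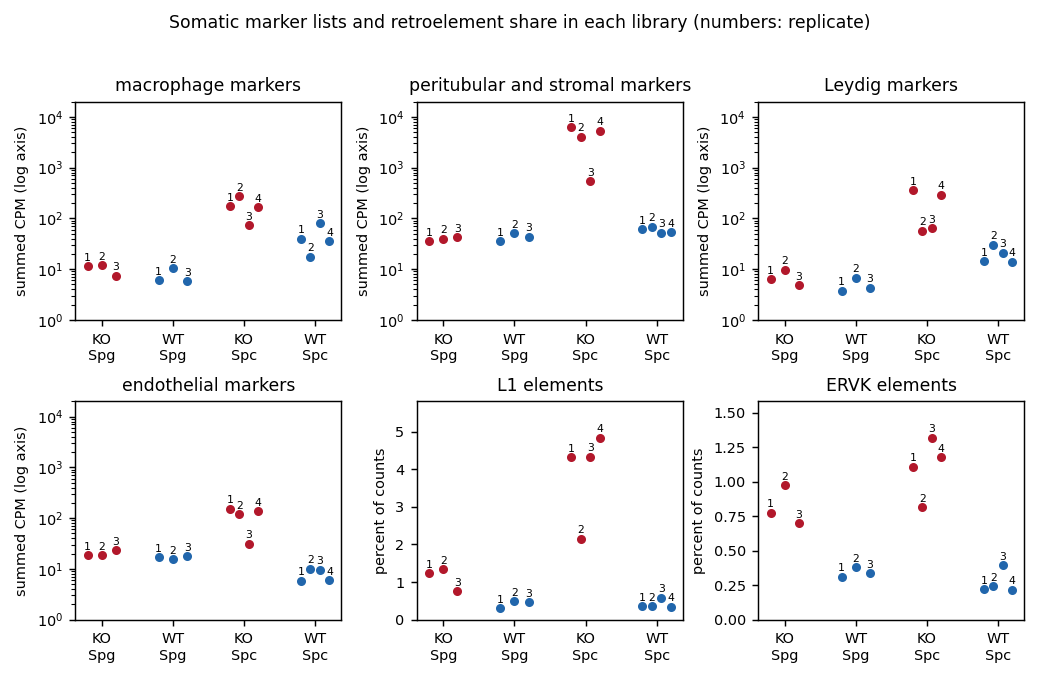
Summed CPM of 4 somatic marker lists (log axes) and the percent of counts from L1 and ERVK elements (linear axes) in each library, red KO and blue WT, with the replicate number beside each point. The stromal, Leydig and endothelial sums of all KO spermatocyte libraries exceed those of WT, replicate 3 lies low among them in the stromal and macrophage panels, and L1 is lowest in KO replicate 2 while ERVK is highest in KO replicate 3.

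Other genes of the pathway were taken from 7 lists. These held 125 gene symbols outside the 9, with Cgas and Sting1 listed under an older name as well. Of these, 87 were tested in spermatogonia and 97 in spermatocytes. In spermatogonia 0 of 87 were called and 1 passed at an unadjusted p under 0.05, beside 0.0436% and 7.3% of all genes tested, and their median log2 fold change was 0.08 beside 0.02 over all genes. That 1 gene was Ripk3, a kinase that partners ZBP1 in necroptosis, at 33.0 ± 7.81 CPM in KO and 14.4 ± 1.90 CPM in WT (SD, n = 3), a log2 change of 1.16 ± 0.22 SE (adjusted p 0.0878 in edgeR), while DESeq2 called it with an adjusted p of 0.000246. In spermatocytes 67 of 97 were called higher and 10 lower, where 28% of all genes tested were called higher and 30.7% lower, with a median log2 fold change of 2.68 beside 0.11 over all genes. With KO replicate 3 alone, an arm of 1 library, 3 of 98 were called, 2 of them higher, where 0.585% of all genes tested were called higher.

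Interferon ligands were hardly detected. Of 21 ligand genes 6 had an entry, and their summed level was at most 0.191 CPM in KO spermatocytes, 0.463 CPM in WT spermatocytes and 0.0880 CPM in spermatogonia. Ifnb1, interferon beta, had no entry in the tables. In WT spermatocytes the ligand signal was mostly Ifnl2, with 2 to 15 counts a library, with at most 1 count in KO. Ifng, which T and natural killer cells make, had 10 counts in KO spermatocyte replicate 3, the KO library lowest in macrophage markers, and 0 in the other 13 libraries.

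Among receptors and JAK-STAT genes 14 of 18 rose in spermatocytes and 1 fell, where 28% of all genes rose and 30.7% fell. Socs3, a feedback inhibitor, rose by a log2 fold change of 6.15 (edgeR adjusted p 6.92e-05), Irf8, a factor of myeloid cells, by 4.57 (9.22e-05) and Usp18, which removes ISG15 from proteins, by 3.49 (0.00017). Tyk2, a kinase of the interferon receptor, fell by 1.06 (0.00843).

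Among RNA sensors and adaptors 13 of 20 rose and 4 fell in spermatocytes, beside the same 28% and 30.7% of all genes. Irf5 (3.77), Sting1 (4.32) and Nlrx1 (2.48) rose with edgeR adjusted p-values of 0.000222, 0.000346 and 0.000287, STING1 being the adaptor of DNA sensing. Dhx58, which encodes LGP2, the third receptor of the RIG-I family, fell by 6.09 on the log2 scale (edgeR adjusted p 9.39e-06), from 124 ± 63.3 CPM in WT to 1.81 ± 0.492 CPM in KO spermatocytes (SD, n = 4), beside 1.66 ± 0.484 CPM in KO spermatogonia. Irf3, the factor that MAVS signalling activates first, fell by 1.33 (0.000118) and Myd88, an adaptor of Toll-like receptors, by 1.99 (0.000348). Of the RIG-I family, Ifih1 was thus called higher, Dhx58 lower and Ddx58 not at all in KO spermatocytes.

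Of the other interferon-stimulated genes 28 of 36 rose and 2 fell in spermatocytes, where 28% of all genes tested rose and 30.7% fell. Ifit3b (7.44), Ifi44 (6.29) and Gbp2 (4.38) rose with edgeR adjusted p-values of 5.81e-05, 6.09e-05 and 8.11e-05. Ifit3b and Ifi44 had at most 1 count in any WT spermatocyte library. They passed the filter through their KO counts, and the size of their change is uncertain. Mx1, a classical antiviral gene, was not called, at 0.434 ± 0.273 CPM in KO and 0.168 ± 0.198 CPM in WT (log2 change 1.34 ± 0.85 SE, adjusted p 0.177 in edgeR). Herc6, an ISG15 ligase, and Epsti1 fell by 4.29 and 4.84 on the log2 scale (0.000231 and 0.000265). Of the 10 genes of MHC class I presentation 7 rose and none fell, beside those same shares, among them Tap2 (5.61, edgeR adjusted p 0.000167), Psmb8 (5.12, 0.000207) and B2m. B2m, the gene of the protein used to gate the spermatogonia, stood at 102, 62.0, 20.7 and 90.6 CPM in KO and 5.70 to 12.5 CPM in WT spermatocytes (2.93, SE 0.48, edgeR adjusted p 0.000421) and at 5.95 to 14.6 CPM in all spermatogonia.

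Genes that limit sensing by removing or editing nucleic acids were divided, with 4 of 8 higher and 3 lower in spermatocytes, beside 28% and 30.7% of all genes. Rnaseh2b (2.44) and Samhd1 (1.36) were among those that rose, with edgeR adjusted p-values of 0.000298 and 0.000906. Rnaseh2a, Skiv2l and Rnaseh2c fell by 4.87, 2.23 and 1.39 on the log2 scale (2.01e-05, 7.37e-05 and 0.00182). Of 5 partners of ZBP1 only Casp8 was called, rising by 2.27 (edgeR adjusted p 0.00223).

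**Figure D4:**
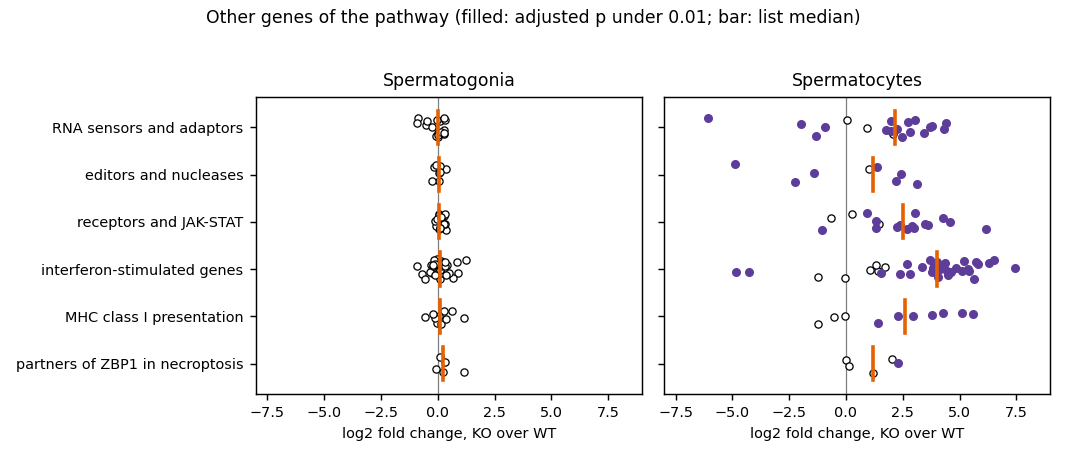
Log2 fold change of KO over WT for each tested gene of 6 pathway lists (1 point a gene, filled at an adjusted p under 0.01, orange bar at the list median) in spermatogonia and spermatocytes. No point is filled in spermatogonia, and in spermatocytes all 6 medians lie above 0, highest for interferon-stimulated genes at 3.99, while 10 genes are called lower.

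The genes with the most similar pattern over the 14 libraries, by the root mean square difference of centred log2 CPM, differed between the members. For Ifit3 they were Sparcl1 (0.637) and Agt (0.653), for Irf7 Acvrl1 (0.502) and Smim41 (0.538), for Ddx58 Lmna (0.274) and Wnt5b (0.284), and for Ifih1 Nacc2 (0.261) and Vdac1 (0.298). For Mavs they were Tmem135 (0.149) and Vangl2 (0.156), and for Bst2 Tspan4 (0.281) and Rpl39 (0.294). Isg15, Ifit1 and Zbp1 were under 1 CPM on average and were not compared.

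Retroelement copies next to the 9 genes were also measured, as TPM of single copies. Within the genes and 5 kb to either side, 1 copy belonged to a young L1 or ERVK subfamily (names that begin with L1Md_T, L1Md_A, L1Md_Gf, IAP, RLTR10, MMERVK10C, ETn or MusD), an L1Md_T copy that ends 165 bases beyond the 3′ end of Bst2. It stood at 3.15, 3.05, 0.657 and 4.05 TPM in KO spermatocyte replicates 1 to 4 and at 0 in the other 10 libraries. Reads that match many copies are shared between them, so this value is not certain to come from that copy. The summed TPM of all L1 and ERVK copies in the same windows was at most 5.67 in KO spermatocytes for Isg15, 1.02 for Ifit1, 4.59 for Ifih1 and 0 for Ifit3 and Irf7. It was at most 1.76 in KO and 8.27 in WT spermatocytes for Ddx58, and 0.133 and 0.284 for Zbp1. For Bst2 KO spermatocytes held 4.48 to 6.28 and WT spermatocytes 0 to 3.43, and for Mavs 8.51 to 29.9 in KO, where WT spermatocytes held 1.45 to 5.25 and spermatogonia 6.44 to 31.5.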

How the data were processed

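Counts per gene and element subfamily were made by the authors with TEtranscripts after cutadapt 4.0 and STAR 2.7.3a on GRCm38, with reads of many alignments shared, and are deposited as raw counts. Libraries were stranded, and 1 spermatogonia replicate of each genotype was left out by the authors for RNA quality. The deposited TPM values of single element copies (TElocal) sum to 1000000 per library. The authors' fold changes and p-values, also deposited, were not used. Each stage was fitted in edgeR 4.0.16 (R 4.3.3; filterByExpr, TMM, quasi-likelihood), and stage contrasts over all 14 libraries on the 32191 features in both tables. p-values are two-sided, Benjamini-Hochberg adjusted over all features, called under 0.01. The steps were tested on simulated data. The log2 CPM used a pseudocount of 0.5, nearest patterns a minimum mean of 1 CPM, and a group at 0 a floor of 3 counts. Counting intervals are exact at 95% and cover counting error only. Positions and exon lengths are from GENCODE M21, promoters from RefSeq. Alternatives used DESeq2 1.42.0, other scalings and filters (a mean count of at least 50), a threshold of 0.05, a replicate block and each library left out. The labels do not say that libraries are separate animals, so the p-values measure the spread between these libraries. The 9 genes and the lists were chosen with earlier results of these data known. Named list genes are up to 3 called in each direction with the smallest p, and Irf3, Ifnb1, B2m, Csf1r, Adgre1 and C1qa. Some genes that this rule names are not reported here. Ripk3, Mx1, Ifnl2 and Ifng were named after their values were seen. Same-numbered spermatogonia libraries deviated together (r 0.458, 0.162 and 0.169 across features, which are not independent replicates), though KO replicate 2 and WT replicate 3 did too (r 0.236). The main fits have no pairing, and the replicate block is an alternative. In spermatocytes r was 0.0728, 0.21, 0.00703 and 0.112 for the same numbers. Spermatocyte replicates 1 and 4 of each genotype were more alike than other pairs (chi-square per degree of freedom 11.6 and 14.9) but above sampling noise. Python 3.11.15, SciPy and matplotlib made the tables and plots.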

Additional observations from a re-analysis of the deposited data

Results flagged for a closer look

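The KO effect differed between the stages, by a test of the difference itself, for Irf7 (log2 difference 4.61, spermatocytes minus spermatogonia), Ifih1 (2.95), Bst2 (2.64) and Mavs (2.41). WT spermatocyte replicate 3 stood apart from the other 3 WT libraries in the share of counts from L1 elements (0.581%) and from ERVK elements (0.395%), and in the summed level of Sertoli markers (539 CPM against 141 to 190). The 3 came from 44 groups of 4 libraries examined, of which chance would give about 1 in 20 such a library. WT replicate 3 also held the highest level of Mavs (9.77 CPM) and Ifih1 (1.27 CPM) among the WT spermatocytes, and without it the 7 calls were kept.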

How the results depend on the processing

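In spermatogonia 0 of the 9 genes were called in each alternative and without any 1 library (0 to 0), and in spermatocytes 7 in all but 2 alternatives, KO replicate 3 alone (0, chosen after seeing the data) and a mean count of at least 50 (5 of the 6 genes left), with 7 to 7 when 1 library was left out. Over all spermatogonia genes edgeR called 9, DESeq2 514 and the replicate block 108. The difference of the KO effect was called for 4 genes, 5 by DESeq2 and 5 at a threshold of 0.05 (Ifit3 added in both), 2 with replicates 1 and 4 summed, 3 with the block, and 2 to 4 when 1 library was left out. Between the WT stages 2 to 4 were left, and between the KO stages 1 to 3, or 5 at a threshold of 0.05, 5 by DESeq2 and 2 with a mean count of at least 50. At a threshold of 0.05 Isg15 and Ifit3 were added as higher in WT spermatocytes than in WT spermatogonia. Their log2 differences were 4.39 and 2.94 (edgeR adjusted p 0.0231 and 0.0289), on 7 against 0 and 15 against 2 summed counts. Of the pathway genes DESeq2 called 1 in spermatogonia (0 to 0 when 1 library was left out). In spermatocytes 77 were called, 3 with KO replicate 3 alone and 68 to 79 when 1 library was left out. Signs turned for uncalled genes only. With the replicate block as a pairing they turned for Irf7 in spermatogonia (0.13), Ddx58 in spermatocytes (-0.13) and Mavs between the KO stages (0.00661). With 1 library left out, Ifih1 in spermatogonia ran from -0.42 to 0.69, Irf7 from -0.60 to 0.27, Ddx58 in spermatocytes from -0.16 to 0.53, Zbp1 in the difference of effects from -1.22 to 2.43, Ifit1 and Zbp1 between the WT stages from -1.41 to 2.71 and from -0.52 to 3.09, and Mavs between the KO stages from -0.193 to 0.0445. Ddx58 turned to -0.0587 with replicates 1 and 4 summed, and Ddx58 and Zbp1 to -1.72 and -0.88 with KO replicate 3 alone. Zbp1 between the WT stages turned to -0.73 with library totals. The causes were not tested. The KO minus WT L1 share was 0.576 to 0.87 percentage points in spermatogonia and 3.19 to 4.08 in spermatocytes without 1 library (3.25 with replicates 1 and 4 averaged, exact permutation p 0.1), and the ERVK share 0.395 to 0.535 and 0.767 to 0.936 (0.808 averaged, exact permutation p 0.1). Isg15, Ifit1, Ifit3 and Zbp1 had too few counts in spermatogonia for a difference to be detectable except at a large fold.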
